A study of Mus musculus with 12 samples.

Results

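The transcripts of 9 lymphocyte marker genes, Cd3d, Cd3e, Cd3g, Cd4, Cd8a, Cd79a, Cd79b, Ms4a1 and Nkg7, were followed in glomerulus-enriched RNA from mice. They were taken by symbol from the 26264 gene rows of the deposited count tables, and each of the 9 symbols had a row. The mice were males, obtained at 8 weeks of age, of 2 inbred substrains, BALB/cAjcl, called AJcl, and BALB/cByJcl, called ByJcl. The baseline groups were untreated, and the Day 5 groups had received a single intravenous injection of adriamycin (ADR, doxorubicin) at 10 mg/kg 5 days before the kidneys were taken. ADR injures podocytes in BALB/c mice and serves as a model of proteinuric kidney disease, and the study compared the substrains before and early after the injury. There were 3 libraries in each of the 4 groups, 12 in all. Glomeruli were collected with magnetic beads perfused through the heart, so the beads lodged in glomerular capillaries, and the whole isolate was sequenced without sorting cells.

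Cd3d, Cd3e and Cd3g encode the CD3 delta, epsilon and gamma chains, which assemble with the T cell receptor and carry its signal into the cell. Cd4 encodes the co-receptor of helper T cells, which some myeloid cells also carry, and Cd8a encodes the alpha chain of the co-receptor of cytotoxic T cells, which is also made by some dendritic cells. Cd79a and Cd79b encode the paired signaling chains of the B cell receptor, Ms4a1 encodes the B cell surface protein CD20, and Nkg7 encodes a membrane protein of the cytotoxic granules of natural killer (NK) cells and cytotoxic T cells. A healthy glomerulus is built of podocytes, endothelial cells, mesangial cells and the parietal cells of its capsule. Lymphocytes reach it through its capillaries and are normally few.

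Each library held between 42198416 and 54687045 counts. At this depth 3 counts, the upper limit that a count of 0 allows, corresponded to between 0.0546 and 0.0693 CPM (counts scaled to a common library size). The isolate carried the markers of the labeled tissue, since the summed level of 7 podocyte genes lay between 6683 and 19573 CPM in every library. The library AJcl Day 5 replicate 1, named A-ADR1 by the study and excluded there for reduced glomerular purity, had the highest summed level of 6 tubular genes, 3710 CPM against 339 to 3565 CPM in the other libraries. It was left out of the tests, and its values are given beside the others. Every library carried the same batch label. Baseline and Day 5 counts were deposited as separate tables, so the processing of the tables and ADR cannot be told apart. In bulk RNA of this kind, fewer cells of a type and less RNA per cell cannot be told apart either.

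On the genome build GRCm39, Cd3g (chr9:44880870-44891735, minus strand), Cd3d (chr9:44893083-44899173, plus strand) and Cd3e (chr9:44910037-44920925, minus strand) lie within 40056 bases of chromosome 9. The starts of Cd3g and Cd3d face away from each other and are 1348 bases apart. Cd4 (chr6:124841655-124874758, minus strand) and Cd8a (chr6:71350411-71356157, plus strand) lie far apart on chromosome 6, and Cd79a (chr7:24596740-24601622, plus strand) and Nkg7 (chr7:43086497-43087678, plus strand) on chromosome 7. Cd79b (chr11:106202167-106205588, minus strand) and Ms4a1 (chr19:11227039-11243605, minus strand) complete the list. In the annotation Cd3e shares 135 exon bases with the antisense long noncoding RNA Gm48719, and Cd79a shares 128 with the antisense Gm72234. The libraries were strand-specific, but the strand setting of the counting is not given in the sources used here, so reads of Cd3e and Cd79a may include reads of these partners.

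All 9 genes were measured at very low levels in all 12 libraries. Over the 108 values (9 genes in 12 libraries) the median was 12 counts and the highest was 44 counts, for Cd8a in A-ADR1. Of these values, 97 were above 3 counts, 72 were 10 counts or more, and 2 were 0. Scaled with edgeR's TMM factors, which set each library's effective size, every value was under 1 CPM. Together the 9 genes took at most 0.000387% of the counts of a library. Of the 108 values, 98 were even numbers (90.7%), and over all low counts of a library, from 1 to 49, that share was 77.1% to 82.9%. Whether both mates of a read pair were counted is not given in the sources used here, so counts may not be independent fragments. If both were counted, the limit that no fragment allows would be 6 counts (0.109 to 0.139 CPM), 79 of the 108 values would lie above it, and 31 would reach 20 counts, or 10 fragments. Floors cover counting error only, since the libraries carry no molecular identifiers.

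**Figure D1:**
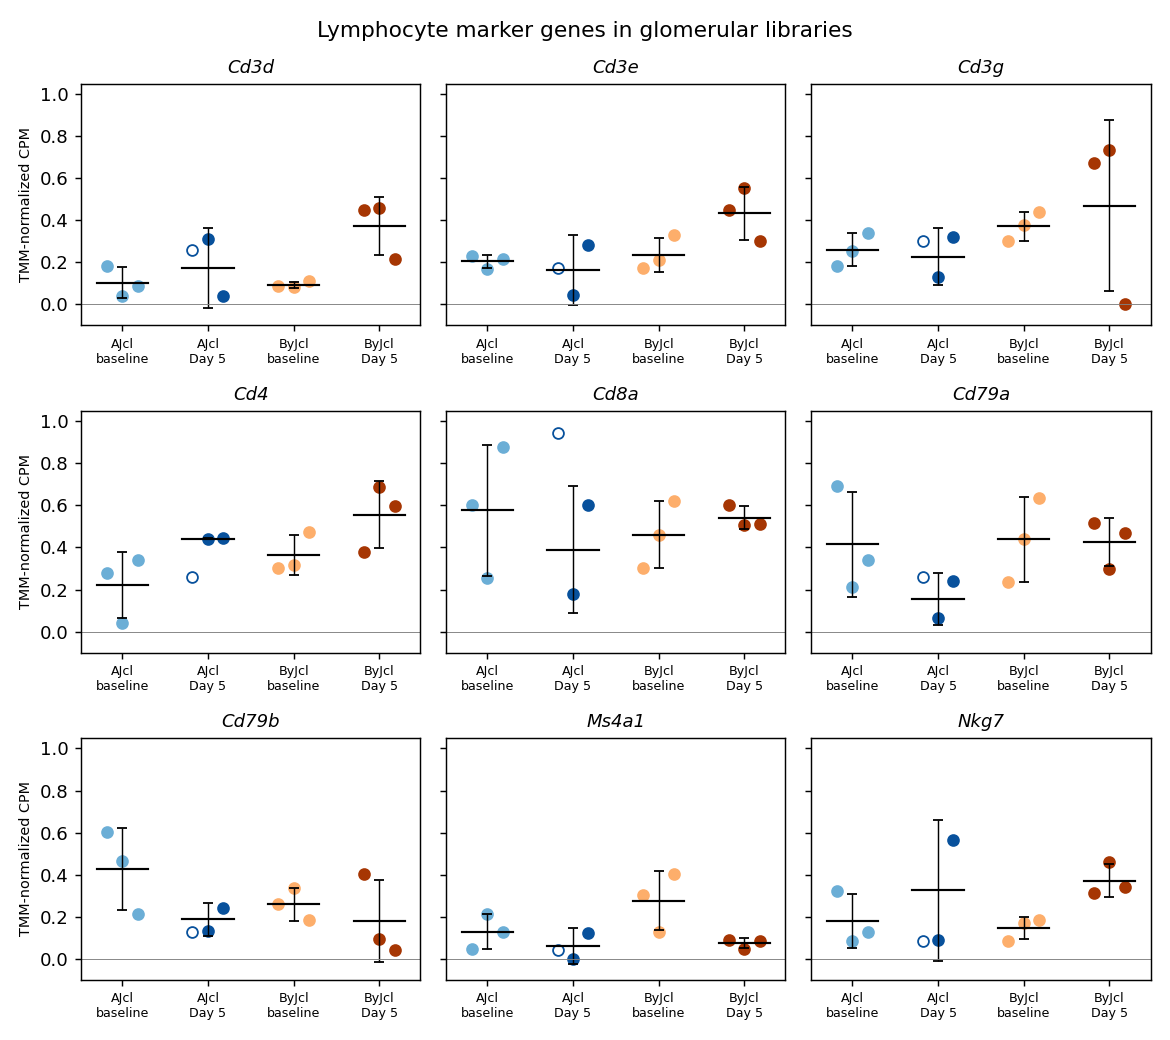
TMM-normalized CPM (y axis) of the 9 lymphocyte marker genes in the 12 glomerular libraries, by substrain and time point (x axis). Points are libraries in the order of their replicate numbers, the open point is A-ADR1, and bars are the mean ± SD over the other libraries of a group (n = 2 for AJcl Day 5, n = 3 otherwise). Every point lies under 1 CPM, and in ByJcl the Day 5 points of Cd3d and Nkg7 lie above the baseline points and those of Ms4a1 under them.

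Per kilobase of merged exon length, the scale on which genes can be set side by side, the mean levels over the 12 libraries ran from 0.256 CPM per kb for Nkg7 to 0.0215 CPM per kb for Ms4a1. Between them came Cd79a (0.241), Cd79b (0.180), Cd8a (0.148), Cd3g (0.103), Cd4 (0.0845), Cd3d (0.0747) and Cd3e (0.0637), all in CPM per kb. The order differed between groups, since Cd79b was highest at AJcl baseline (0.298 CPM per kb) and Cd79a at ByJcl baseline (0.288 CPM per kb), where Cd3d was lowest (0.0360 CPM per kb). The ranges over libraries of neighbors in this order overlapped in every case. For example, Nkg7 spanned 0.0918 to 0.613 CPM per kb and Cd79a spanned 0.0435 to 0.455 CPM per kb. Among the 23698 gene rows with an exon length, the 9 genes stood between percentile 26.7 (Ms4a1) and percentile 42.8 (Nkg7) of mean CPM per kb. As a yardstick chosen after these values were seen, 16 genes known from testis, retina, pancreas, muscle and brain were looked up. On the same scale 10 of the 16 lay under Ms4a1, and 4 had no count in any library. Of the rest, Cela1, a pancreatic elastase, had a mean of 4.97 CPM per kb and Myh6, a cardiac myosin heavy chain, 0.296 CPM per kb, both above Nkg7.

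None of the CD3 chains passed the test in any comparison. In baseline libraries 1 to 3 Cd3d stood at 0.185, 0.0422 and 0.0855 CPM in AJcl and at 0.0861, 0.0839 and 0.109 CPM in ByJcl. At Day 5 it stood at 0.257 (A-ADR1), 0.309 and 0.0403 CPM in AJcl and at 0.448, 0.459 and 0.214 CPM in ByJcl. Each ByJcl Day 5 library was above each ByJcl baseline library, a separation in either direction that 33.1% of all tested genes showed, whereas one AJcl Day 5 library was under the lowest AJcl baseline library. The ByJcl mean was 0.0931 ± 0.0141 CPM at baseline and 0.374 ± 0.139 CPM at Day 5 (SD, n = 3 each), a log2 fold change of 1.95 (SE 0.77, 95% interval 0.25 to 3.65). This interval excluded 0, but over all tested genes the difference did not pass the threshold (edgeR quasi-likelihood test with Benjamini-Hochberg adjustment, adjusted p = 0.133). In 3 of 18 alternatives, each with a ByJcl library left out (baseline replicate 1, baseline replicate 3 or Day 5 replicate 2), no lymphocyte gene was at an unadjusted p under 0.05 in this comparison. In AJcl the log2 fold change was 0.74 (95% interval -1.20 to 2.67) and turned to -1.30 without AJcl Day 5 replicate 2, and the difference between the substrains' responses was 1.21 on the log2 scale (95% interval -1.39 to 3.82, adjusted p = 0.803). That difference was 3.26 without AJcl Day 5 replicate 2 and 0.42 without AJcl Day 5 replicate 3.

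Cd3e, the chain most often used to identify T cells, stood at 0.231, 0.169 and 0.214 CPM in AJcl baseline libraries and at 0.172, 0.210 and 0.328 CPM in ByJcl baseline libraries. Its Day 5 values were 0.172 (A-ADR1), 0.0442 and 0.282 CPM in AJcl and 0.448, 0.551 and 0.299 CPM in ByJcl. At Day 5 every ByJcl library was above every AJcl library, with A-ADR1 or without it, and 19.3% and 33.0% of all tested genes separated the substrains in this way in either direction. The mean of AJcl was 0.163 ± 0.168 CPM (SD, n = 2) and that of ByJcl 0.433 ± 0.127 CPM (SD, n = 3), a log2 fold change of ByJcl against AJcl of 1.37 (SE 0.72, 95% interval -0.22 to 2.96, edgeR adjusted p = 0.424). It was 0.61 without AJcl Day 5 replicate 2 and 3.23 without AJcl Day 5 replicate 3. At baseline the same difference was 0.25 (95% interval -1.15 to 1.64) and ranged from -0.067 to 0.43 with 1 library left out.

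The third chain, Cd3g, was read at 0.185, 0.253 and 0.342 CPM in AJcl baseline libraries and at 0.301, 0.378 and 0.437 CPM in ByJcl baseline libraries. At Day 5 its values were 0.300 (A-ADR1), 0.133 and 0.322 CPM in AJcl and 0.672, 0.735 and 0 CPM in ByJcl. The ByJcl Day 5 group thus held both its highest values and a library with no count (replicate 3), where 3 counts would be 0.0641 CPM. The same library had 10 counts of Cd3d and 14 of Cd3e. Between libraries of one group the variance of halved counts was 3.46 times their mean for Cd3g, the highest of the 9 genes. For Cd3e, the lowest, it was 1.03 times. A ratio of 1 would be counting error alone if both mates of every read pair were counted, which is not known here. The log2 fold change of Cd3g from baseline to Day 5 was 0.30 in ByJcl (95% interval -1.68 to 2.28) and -0.17 in AJcl (95% interval -2.51 to 2.18). Both changed sign with 1 library left out, to -0.18 without ByJcl Day 5 replicate 2 and -0.031 without ByJcl Day 5 replicate 1, and in AJcl to 0.31 without AJcl Day 5 replicate 2 and 0.067 without AJcl baseline replicate 3.

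Summed over the CD3 chains, the 12 libraries ran from 0.464 CPM (AJcl baseline replicate 2) to 1.75 CPM (ByJcl Day 5 replicate 2). ByJcl Day 5 replicates 1 and 2, at 1.57 and 1.75 CPM, stood above the other 10 libraries, of which the highest was 0.874 CPM, but replicate 3 of that group was at 0.513 CPM. The mean of the ByJcl Day 5 group, 1.28 ± 0.666 CPM (SD, n = 3), had the widest spread of the 4 groups.

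Cd4 and Cd8a are the co-receptor genes. Cd4 stood at 0.277, 0.0422 and 0.342 CPM in AJcl baseline libraries and at 0.301, 0.315 and 0.474 CPM in ByJcl baseline libraries. After ADR it stood at 0.257 (A-ADR1), 0.442 and 0.443 CPM in AJcl and at 0.381, 0.689 and 0.598 CPM in ByJcl. The AJcl Day 5 libraries were above the AJcl baseline libraries when A-ADR1 was left out and overlapped with them when it was kept. The log2 fold change at Day 5 was 1.02 in AJcl (95% interval -0.44 to 2.49) and 0.59 in ByJcl (95% interval -0.69 to 1.88), and its mean over both substrains was 0.81 (SE 0.44, 95% interval -0.17 to 1.78, edgeR adjusted p = 0.290).

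Cd8a had the highest count of the 9 genes summed over the 12 libraries. Its baseline values were 0.601, 0.253 and 0.876 CPM in AJcl and 0.301, 0.461 and 0.619 CPM in ByJcl. Its Day 5 values were 0.944 (A-ADR1), 0.177 and 0.604 CPM in AJcl and 0.604, 0.505 and 0.513 CPM in ByJcl. All 4 groups overlapped, and the lowest and the highest of the 12 values both came from AJcl Day 5. The interval of the mean response over both substrains ran from -1.08 to 0.77 around a log2 fold change of -0.16 (edgeR adjusted p = 0.863), and the value ranged from -0.74 to 0.15 with 1 library left out. The interval was the narrowest among the 9 genes for that comparison.

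Neither Cd79a, Cd79b nor Ms4a1, the B cell genes, passed the test in any comparison. Cd79a stood at 0.693, 0.211 and 0.342 CPM in AJcl baseline libraries and at 0.237, 0.440 and 0.638 CPM in ByJcl baseline libraries. Its Day 5 values were 0.257 (A-ADR1), 0.0663 and 0.241 CPM in AJcl and 0.515, 0.299 and 0.470 CPM in ByJcl. Every ByJcl Day 5 library was above every AJcl Day 5 library, with or without A-ADR1, as for 19.3% and 33.0% of all tested genes, while the baseline groups overlapped. The Day 5 mean of AJcl was 0.154 ± 0.124 CPM (SD, n = 2) and that of ByJcl 0.428 ± 0.114 CPM (SD, n = 3), a log2 fold change of 1.44 (SE 0.75, 95% interval -0.20 to 3.09, edgeR adjusted p = 0.418). Without AJcl Day 5 replicate 2 it was 0.81, and without replicate 3 it was 2.66. The response to ADR in AJcl was -1.38 on the log2 scale (95% interval -3.03 to 0.27). With 1 library left out it ranged from -2.61 to -0.76. In ByJcl it was -0.05 (95% interval -1.39 to 1.28, and from -0.35 to 0.32 with 1 library left out). The difference between these responses, 1.33, had an interval from -0.78 to 3.43 (edgeR adjusted p = 0.728). It ranged from 0.72 to 2.56 with 1 library left out.

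Cd79b, whose protein pairs with that of Cd79a, stood at 0.601, 0.464 and 0.214 CPM in AJcl baseline libraries and at 0.258, 0.336 and 0.182 CPM in ByJcl baseline libraries. At Day 5 the values were 0.129 (A-ADR1), 0.133 and 0.241 CPM in AJcl and 0.403, 0.0919 and 0.0427 CPM in ByJcl. One ByJcl Day 5 library was above all ByJcl baseline libraries and the others were under them. The mean response over both substrains was -0.85 on the log2 scale (SE 0.57, 95% interval -2.11 to 0.41, edgeR adjusted p = 0.401). Without ByJcl Day 5 replicate 1, the high library, it was -1.54 with an adjusted p of 0.0879, the smallest that any of the 9 genes reached in any comparison under any alternative.

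Ms4a1, the lowest of the 9 genes over all libraries, stood at 0.0462, 0.211 and 0.128 CPM in AJcl baseline libraries and at 0.301, 0.126 and 0.401 CPM in ByJcl baseline libraries. Day 5 libraries held it at 0.0429 (A-ADR1), 0 and 0.121 CPM in AJcl and at 0.0895, 0.0459 and 0.0855 CPM in ByJcl. Each ByJcl Day 5 library was under each ByJcl baseline library, and the Day 5 values correspond to 4 counts or fewer in 5 of the 6 Day 5 libraries and to 6 in the other one. The ByJcl mean was 0.276 ± 0.139 CPM at baseline and 0.0737 ± 0.0241 CPM at Day 5 (SD, n = 3 each), a log2 fold change of -1.88 (SE 0.90, 95% interval -3.87 to 0.10, edgeR adjusted p = 0.209). In AJcl it was -1.02 (95% interval -3.42 to 1.38), with a Day 5 library at 0 counts in which 3 counts would be 0.0663 CPM. Without that library, replicate 2, it was -0.09. Without replicate 3 only the library at 0 counts is left in the group, and no fold is given.

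Summed over Cd79a, Cd79b and Ms4a1, baseline libraries lay between 0.684 and 1.34 CPM and Day 5 libraries between 0.199 and 1.01 CPM. In AJcl the Day 5 libraries, A-ADR1 included, lay at 0.429, 0.199 and 0.604 CPM, under the lowest AJcl baseline library. This sum was not tested, and 13.4% of single tested genes separated the same libraries in either direction. None of Cd79a, Cd79b and Ms4a1 did so alone. In ByJcl the Day 5 and baseline libraries overlapped. The sum was 0.970 ± 0.336 CPM at baseline (SD, n = 3) and 0.401 ± 0.286 CPM at Day 5 (SD, n = 2) in AJcl, and 0.973 ± 0.221 and 0.681 ± 0.294 CPM in ByJcl (SD, n = 3 each).

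Nkg7, the cytotoxic granule gene, stood at 0.323, 0.0844 and 0.128 CPM in AJcl baseline libraries and at 0.0861, 0.168 and 0.182 CPM in ByJcl baseline libraries. Its Day 5 values were 0.0858 (A-ADR1), 0.0884 and 0.563 CPM in AJcl and 0.313, 0.459 and 0.342 CPM in ByJcl. All ByJcl Day 5 libraries were above the ByJcl baseline libraries, and in AJcl only replicate 3 at Day 5 was above its baseline libraries. The ByJcl mean was 0.145 ± 0.0518 CPM at baseline and 0.372 ± 0.0774 CPM at Day 5 (SD, n = 3 each), a log2 fold change of 1.32 (SE 0.74, 95% interval -0.31 to 2.94, edgeR adjusted p = 0.285). In AJcl it was 0.90 (95% interval -0.87 to 2.67), and without that replicate it turned to -1.001.

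The same edgeR model tested 17002 genes, among them all 9 lymphocyte genes, and none of the 9 was called at an adjusted p under 0.05 in any of the 6 comparisons. Over all tested genes the share called was 0.159% for ByJcl against AJcl at baseline and 0.165% for ByJcl against AJcl at Day 5. It was 0.312% for Day 5 against baseline in AJcl, 10.6% for the same comparison in ByJcl and 10.4% for the mean response over both substrains. For the difference between the substrains' responses (the interaction) no gene of the 17002 was called, with 1363 genes at an unadjusted p under 0.05 and 23 called by DESeq2. Cd3d was the only one of the 9 genes with an unadjusted p under 0.05, in ByJcl and in the mean response (log2 fold change 1.34, 95% interval 0.06 to 2.63), and the shares of all genes at that level were 26.8% and 24.8%. With 1 library left out the mean response of Cd3d ran from 0.33 (without AJcl Day 5 replicate 2) to 1.75 (without AJcl Day 5 replicate 3). In 8 of 18 alternatives, DESeq2 and the replicate block among them, none of the 9 was at that level in the mean response, and without AJcl baseline replicate 1 there were 3. In the other comparisons none of the 9 was at that level in the same model, where the shares of all genes were 8.34% (baseline), 14.0% (Day 5), 9.80% (AJcl) and 8.02% (interaction). For ByJcl against AJcl at Day 5 this changed under alternatives. There 1 gene was at that level with all 12 libraries, and 1 without ByJcl Day 5 replicate 3. DESeq2 called none of the 9 in the comparisons where it gave them an adjusted p. It gave none to any of the 9 for ByJcl against AJcl at Day 5 and for the interaction, 18 values in all, and calls by DESeq2 given here cover only genes with an adjusted p.

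**Figure D2:**
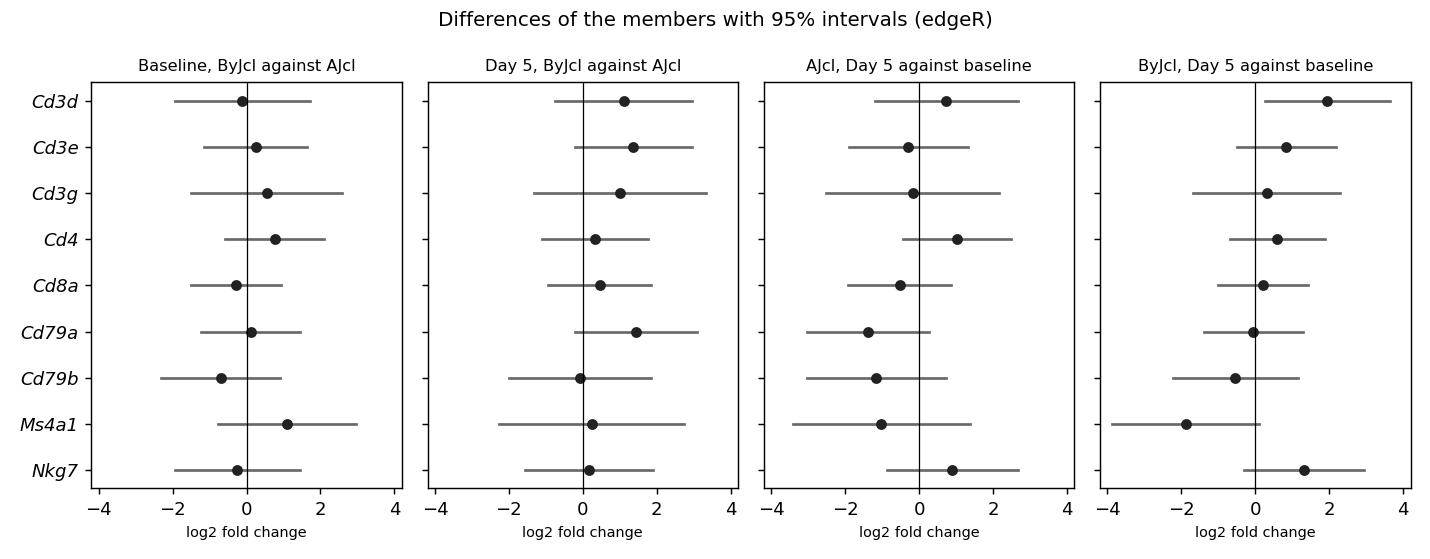
Log2 fold change (x axis) of the 9 lymphocyte marker genes (y axis) in 4 comparisons, as points with 95% intervals from the edgeR model over 11 libraries. Apart from Cd3d in ByJcl (0.25 to 3.65), every interval includes 0, and most span more than 2 log2 units.

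The signs of the 9 differences were mixed at baseline and in AJcl. At baseline 5 of 9 were higher in ByJcl (median log2 fold change 0.12, against 0.01 over all tested genes), and 2 of 8 without ByJcl baseline replicate 3, where Ms4a1 was not tested. At Day 5 it was 8 of 9, Cd79b being the exception at -0.08, with a median of 0.46 against 0.00 over all tested genes, but 5 of 9 without AJcl Day 5 replicate 2. In AJcl 3 of 9 had a positive response to ADR (Cd3d, Cd4 and Nkg7, median -0.29), with 5 of 9 without AJcl Day 5 replicate 2 and 2 of 9 without AJcl Day 5 replicate 3, and in ByJcl 6 of 9 (the 3 CD3 chains, Cd4, Cd8a and Nkg7, median 0.30). These comparisons share libraries, so their signs are not independent of each other.

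Libraries of the compared groups did not overlap for 0 of 9 genes at baseline, where 14.3% of all tested genes did not overlap. For ByJcl against AJcl at Day 5 it was 2 of 9 (Cd3e and Cd79a, both higher in ByJcl), with 33.0% of all tested genes over the 11 libraries and 19.3% over 12. For Day 5 against baseline it was 1 of 9 in AJcl (Cd4), with 25.9% of all genes, and 0 of 9 with A-ADR1 included, with 13.4%. In ByJcl it was 3 of 9 (Cd3d and Nkg7 higher, Ms4a1 lower), with 33.1% of all genes. A-ADR1 was above every AJcl baseline library for 2 of 9 (Cd3d and Cd8a), with 36.4% of all tested genes. The share among the 9 genes was near or under that of all genes each time, and is no result about these genes.

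The sum of the 9 genes over libraries 1 to 3 was 3.14, 1.73 and 2.67 CPM at AJcl baseline and 2.04, 2.52 and 3.37 CPM at ByJcl baseline. At Day 5 it was 2.44 (A-ADR1), 1.39 and 2.86 CPM in AJcl and 3.87, 3.84 and 2.56 CPM in ByJcl. Baseline and Day 5 libraries overlapped in both substrains. Group means were 2.51 ± 0.719 and 2.12 ± 1.04 CPM for AJcl (SD, n = 3 and 2) and 2.64 ± 0.672 and 3.42 ± 0.745 CPM for ByJcl (SD, n = 3 each), at baseline and Day 5 respectively.

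**Figure D3:**
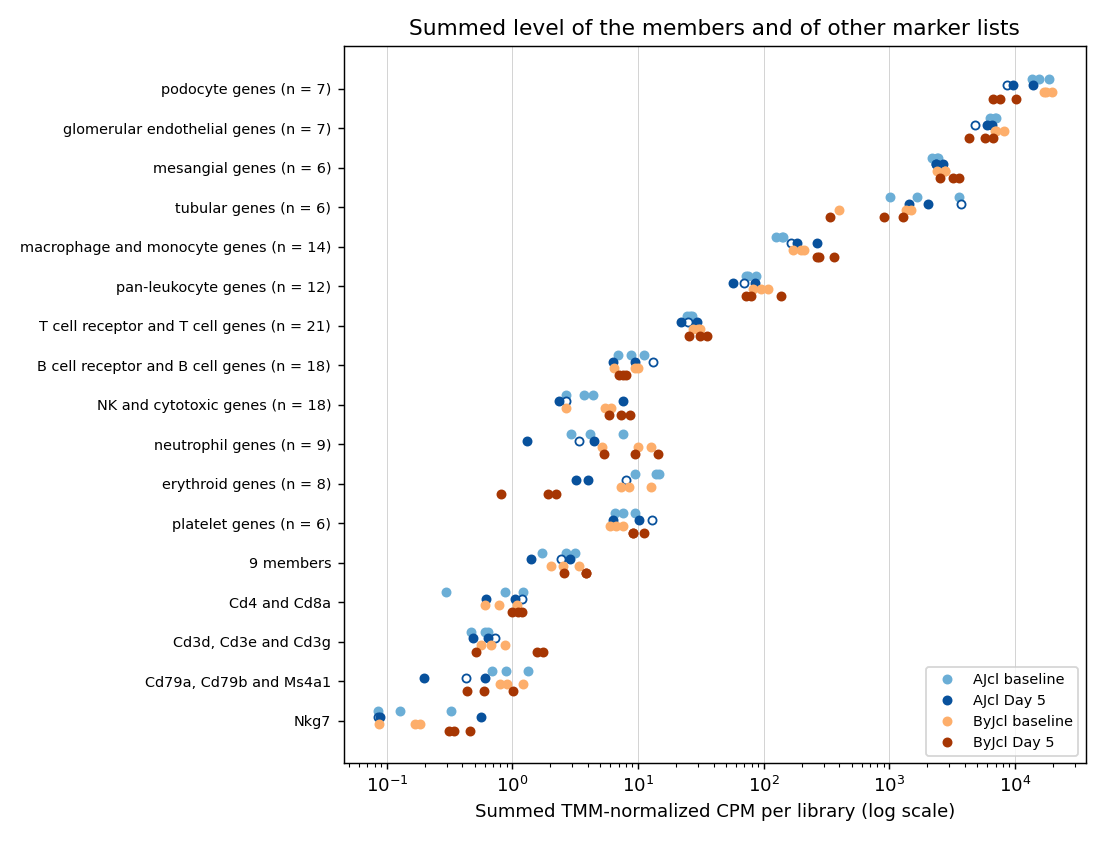
Summed TMM-normalized CPM per library (x axis, log scale) of the 9 lymphocyte genes, of subsets of them and of other marker lists (y axis, with the number of genes in a list), by group, with A-ADR1 as an open point. Sums are not corrected for gene length or for the number of genes. The 9 genes lie between 1.39 and 3.87 CPM and the podocyte genes between 6683 and 19573 CPM in every library.

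Further genes of T cells, B cells and NK cells were tested in the same fit. Of 24 further T cell genes, which serve T cell receptor signaling, co-stimulation and T cell transcription, 21 had a row and 20 were tested, and Trac, Trbc1 and Trbc2 were not analysed here. None of the 20 was called between substrains by edgeR or DESeq2, with 3 genes at baseline and 2 at Day 5 at an unadjusted p under 0.05, and the median difference was 0.26 and 0.66. For Day 5 against baseline none was called in AJcl by either tool (1 at an unadjusted p under 0.05, median 0.08), and 1 fell in ByJcl (median 0.29) and in the mean response (median 0.23). That gene was Lef1, a transcription factor of early T cells that also acts in other tissues. Lef1 stood at 4.23, 6.10 and 3.68 CPM in AJcl baseline libraries and at 4.43, 4.70 and 3.83 CPM in ByJcl baseline libraries, against 2.14 (A-ADR1), 3.20 and 2.42 CPM in AJcl and 2.78, 1.72 and 2.22 CPM in ByJcl at Day 5. In each substrain every Day 5 library was under every baseline library. Over all tested genes, 13.4% in AJcl with A-ADR1 included and 33.1% in ByJcl separated in this way in either direction. The log2 fold change was -0.84 for the mean response (SE 0.20, edgeR adjusted p = 0.0209) and -0.96 in ByJcl (SE 0.26, adjusted p = 0.0399). The first call was kept in 16 of 18 alternatives and the second in 11 of 18, and leaving out AJcl Day 5 replicate 3 raised the first adjusted p to 0.132. Tcf7, a related transcription factor, had a mean of 7.47 ± 1.25 CPM at AJcl baseline and 9.90 ± 1.27 CPM at ByJcl baseline (SD, n = 3 each), and its mean response was 0.11.

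Of 21 further B cell genes, 18 had a row and 15 were tested, and Ighm, Ighd and Igkc were not analysed here. By edgeR none was called between substrains (median 0.35 at baseline and 0.55 at Day 5) or within either substrain (median 0.02 in AJcl and -0.31 in ByJcl), with 0, 2, 1 and 1 genes at an unadjusted p under 0.05 in these comparisons. DESeq2 called 1 gene in each of the last 3, Blnk between the substrains at Day 5 and Jchain within both substrains. In the mean response 1 gene fell by both tools (median -0.13). It was Jchain, which encodes the joining chain of secreted IgM and IgA and is made by plasma cells. Jchain stood at 3.70, 0.548 and 0.684 CPM in AJcl baseline libraries and at 0.258, 1.47 and 1.42 CPM in ByJcl baseline libraries. At Day 5 it stood at 0.300 (A-ADR1), 0.0442 and 0.0805 CPM in AJcl and at 0.0448, 0.0919 and 0.214 CPM in ByJcl. Every Day 5 library was under every baseline library of its substrain, and without A-ADR1 under every baseline library of both. Within a substrain, 13.4% (AJcl, A-ADR1 included) and 33.1% (ByJcl) of all tested genes separated in either direction. The mean response was -3.89 on the log2 scale (SE 0.77, edgeR adjusted p = 0.0102), and it was -3.19 with an adjusted p of 0.0156 without AJcl baseline replicate 1, the highest library. The call was kept in 17 of 18 alternatives, and without AJcl Day 5 replicate 3 the adjusted p was 0.0717. Blnk, an adaptor of B cell receptor signaling, differed by -1.66 between the substrains at Day 5 (SE 0.46, edgeR adjusted p = 0.167). It stood at 2.58 and 3.07 CPM in the tested AJcl Day 5 libraries and at 0.448 to 1.28 CPM in ByJcl. In A-ADR1, the library with the highest sum of tubular genes, it was at 8.02 CPM. The part of tubular RNA in this difference was not tested.

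Of 18 NK cell and cytotoxic genes, 15 were tested and edgeR called none in any comparison, with at most 2 at an unadjusted p under 0.05. Their median response to ADR was 0.41 in AJcl and 0.96 in ByJcl, and the median difference of ByJcl against AJcl was 0.42 at baseline and 0.63 at Day 5. Ccl5, a chemokine of T and NK cells, had a mean response of 1.59 (SE 0.48, edgeR adjusted p = 0.0587) and was the 1 gene of the list that DESeq2 called, in that comparison. Gzma, a granule protease, had a mean response of 0.71 (SE 0.42, adjusted p = 0.330).

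**Figure D4:**
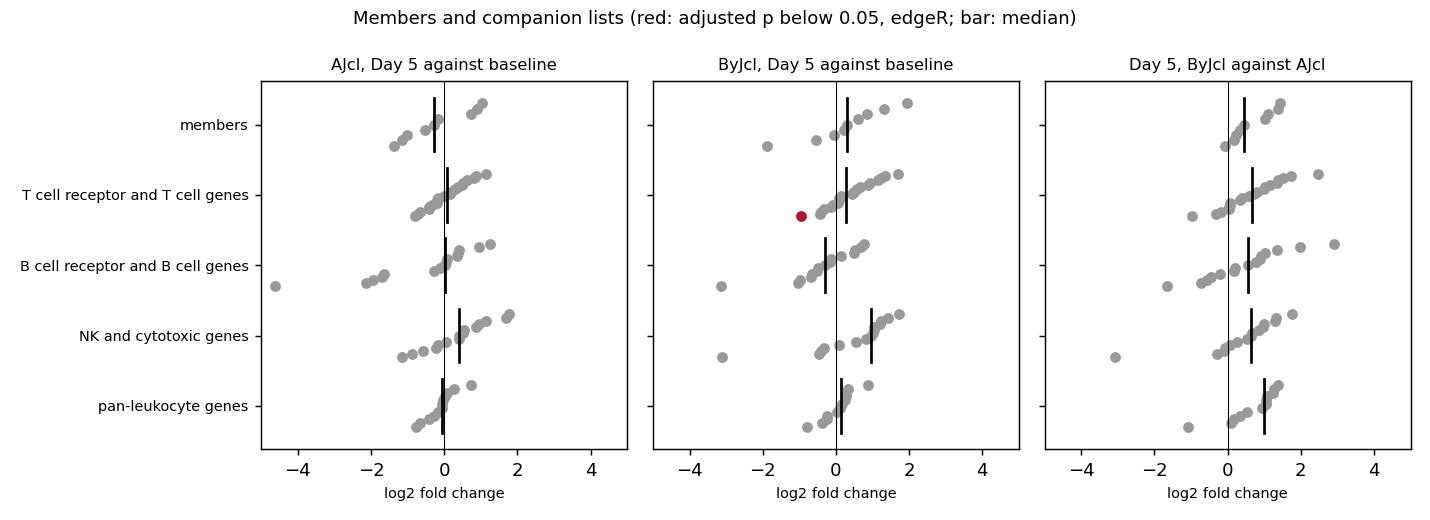
Log2 fold change (x axis) of single genes (points) of the 9 lymphocyte genes (members) and of 4 further lists (y axis) in 3 comparisons, with the median of each list as a bar. Red points are genes with an edgeR adjusted p under 0.05. The one red point is Lef1 in ByJcl (-0.96).

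Markers shared by all leukocytes and those of other cell types were read in the same libraries. The 12 pan-leukocyte genes summed to between 56.6 and 138 CPM per library, and edgeR called 1 of them, Ikzf1, a lymphoid transcription factor, in the mean response (log2 fold change -0.78, SE 0.19, edgeR adjusted p = 0.0245, kept in 12 of 18 alternatives). In ByJcl it had an edgeR adjusted p of 0.0637, and it was called there by DESeq2 and, by edgeR, without ByJcl Day 5 replicate 1 (adjusted p = 0.0196). Their median difference of ByJcl against AJcl was 0.75 at baseline and 0.99 at Day 5, with none called by edgeR, 4 and 3 genes at an unadjusted p under 0.05, and 1 gene called by DESeq2 at both times. That gene was Cd53, a leukocyte tetraspanin, which was lower in ByJcl, against the direction of the median, with an edgeR log2 fold change of -1.42 at baseline and -1.07 at Day 5. The 14 macrophage and monocyte genes summed to 126 to 143 CPM at AJcl baseline, 170 to 210 CPM at ByJcl baseline, 166 to 265 CPM at AJcl Day 5 and 265 to 362 CPM at ByJcl Day 5. In the mean response 3 of the 14 rose (Ly6c2, Mrc1 and Cd68), while 6 of the 14 had a positive log2 fold change and the median was -0.11. The 8 erythroid genes, one of which is also made by kidney tubule cells, summed to 9.43 to 14.6 CPM at AJcl baseline and 7.25 to 12.7 CPM at ByJcl baseline. At Day 5 they summed to 3.22 to 8.04 CPM in AJcl and 0.806 to 2.22 CPM in ByJcl. The 3 that could be tested had negative log2 fold changes in both substrains, and 1 of them, Alas2, the erythroid heme synthesis enzyme, fell in AJcl (log2 fold change -3.46, SE 0.54, edgeR adjusted p = 0.0272) and in ByJcl (log2 fold change -3.50, SE 0.47, edgeR adjusted p = 0.00201). Of the 8, the 4 globin genes were listed at 0 in every library, and Ahsp, counted in every baseline library, was at 0 in every Day 5 library. The 7 podocyte genes all fell in ByJcl (median -1.28) and in the mean response (median -0.76), and in ByJcl their sum went from a mean of 18088 ± 1325 CPM at baseline to 8118 ± 1791 CPM at Day 5 (SD, n = 3 each). The sum of the 6 tubular genes had a mean of 2076 CPM at AJcl baseline, 1722 CPM at AJcl Day 5 without A-ADR1, 1071 CPM at ByJcl baseline and 840.1 CPM at ByJcl Day 5, and neither tool called a tubular gene in any comparison, with at most 1 at an unadjusted p under 0.05 by edgeR. The part of these shifts in the levels of Ms4a1, Jchain and the other lymphocyte genes was not tested.

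Pearson's r of log2(CPM + 0.5) across the 12 libraries ran, between pairs of the 9 genes, from -0.680 (Cd4 and Cd79b) to 0.716 (Cd3e and Nkg7), and among the CD3 chains it was 0.640 for Cd3e and Cd3g, 0.429 for Cd3d and Cd3e and 0.324 for Cd3d and Cd3g. The genes whose level was most like the summed CD3 chains were Il1r2 (r = 0.934), Htr6 (0.931), Chl1 (0.915), Gm5134 (0.914) and Ip6k3 (0.907). For the summed Cd79a, Cd79b and Ms4a1 they were Pou2f2 (0.920), Lrrc3b (0.915), Trim59 (0.846), Dlk1 (0.839) and Ebi3 (0.838). These values describe 12 libraries that share groups and depth, they were picked as the highest of all tested genes, and 5 of the 10 genes were themselves under 1 CPM on average.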

How the data were processed

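Poly(A)-selected RNA of isolated glomeruli was sequenced as paired-end reads of 150 bases. Per the labels the authors used FastQC, Trimmomatic, STAR (genome GRCm39) and featureCounts. What was deposited are raw counts, in whole numbers, for each gene symbol and library. The annotation and strand setting of the counting are not given in the sources used here. Groups were taken from the labels. Counts were tested in R 4.3.3 with edgeR 4.0.16 (filterByExpr by group, TMM, quasi-likelihood, 1 coefficient per group, 11 libraries without A-ADR1, 7 residual degrees of freedom), and Benjamini-Hochberg adjustment covered all 17002 tested genes, with calls under 0.05. The groups share 1 estimate of the spread. Intervals are 95% intervals from the same fit, and the fold changes are those of edgeR. Levels are CPM with TMM factors over 12 libraries. Exon lengths and positions come from the GENCODE annotation of GRCm39.

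The members and lists were chosen with earlier results of these data known. All 9 members are named, and of each further list at most 4 called genes per comparison, or where none was called up to 2 with the highest CPM. The pseudocount of 0.5 was used for correlations. The labels do not state that replicates came from separate animals, so p-values measure the spread between libraries. Replicate pairs of a group differed by a chi-square of 47.1 to 290 per degree of freedom, so none was a repeated library. Alternatives were all 12 libraries, RLE size factors, DESeq2 1.42.0, 2 other filters, halved counts, a replicate block, the libraries of 1 time point, and each library left out. The fit was tested on simulated data. Figures were drawn with Python 3.11.15 and matplotlib 3.10.9.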

Additional observations from a re-analysis of the deposited data

Results flagged for a closer look

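A-ADR1, the library outside the tests, held 2 of the 9 lymphocyte genes at levels above every AJcl baseline library. Over all tested genes that share was 36.4%, so the count is no result about these genes. Cd8a was at 0.944 CPM in it, against 0.253 to 0.876 CPM in AJcl baseline libraries, and Cd3d was at 0.257 CPM, against 0.0422 to 0.185 CPM. These are 44 and 12 counts. The other Day 5 libraries of AJcl reached 0.604 CPM for Cd8a and 0.309 CPM for Cd3d. The same library had the highest summed level of tubular genes, and the part of that in these values was not tested.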

How the results depend on the processing

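No lymphocyte gene that was tested was called under any alternative in any comparison (110 counts of calls, all 0), and the smallest adjusted p was 0.0879. The counts of DESeq2 for ByJcl against AJcl at Day 5 and for the interaction could only be 0. It gave these genes no adjusted p there. Of 963 log2 fold changes of these genes under the alternatives, 920 kept their sign and 43 turned, 39 of them with a library left out, and the cause was not tested. With all 12 libraries, the log2 fold change of ByJcl against AJcl at Day 5 turned to -0.089 for Cd8a and 0.086 for Cd79b, and the mean response of Cd8a turned to 0.11.

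With 1 library left out, the baseline difference ranged from -0.47 to 0.53 for Cd3d, -0.067 to 0.43 for Cd3e, -0.63 to 0.12 for Cd8a, -0.26 to 0.67 for Cd79a and -0.58 to 0.45 for Nkg7. The Day 5 difference ranged from -0.16 to 1.62 for Cd8a, -1.46 to 0.44 for Cd79b, -0.69 to 4.84 for Ms4a1 and -0.60 to 2.06 for Nkg7. The AJcl response ranged from -1.30 to 1.54 for Cd3d, -2.16 to 0.47 for Cd3e, -0.97 to 0.31 for Cd3g, -1.70 to 0.080 for Cd8a and -1.001 to 1.66 for Nkg7, and the ByJcl response from -0.18 to 0.91 for Cd3g, -0.016 to 0.49 for Cd8a and -0.35 to 0.32 for Cd79a. The mean response ranged from -0.65 to 0.66 for Cd3e, -0.33 to 0.36 for Cd3g and -0.74 to 0.15 for Cd8a. The interaction ranged from -0.016 to 1.29 for Cd3g, -0.87 to 0.055 for Cd4, -0.74 to 1.15 for Cd79b, -1.79 to 3.74 for Ms4a1 and -0.33 to 2.33 for Nkg7. Ms4a1 did not pass the filter in 2 of the 11 cases, nor with all 12 libraries or halved counts, and with the libraries of 1 time point 7 of the 9 genes were tested at baseline and 8 at Day 5. The upper ends for Ms4a1 (4.84 and 3.74) are fitted against a single library at 0 counts and are no estimate of a size. Where a group is left with 1 library, that library is assumed to vary like the other groups.

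Counts of called genes over all genes moved more. The 27 at baseline became 101 by DESeq2, 15 with the baseline libraries alone and 12 to 29 with a library left out. The 28 at Day 5 became 72 with 12 libraries, 555 by DESeq2, 56 without the filter on low counts, 6 with the Day 5 libraries alone and 9 to 218 with a library left out. The 53 in AJcl became 301 by DESeq2, 99 without the filter and 11 to 180 with a library left out. The 1800 in ByJcl became 1197 with 12 libraries and 680 to 2056 with a library left out, the 1774 of the mean response 531 to 1816, and the 0 of the interaction 23 by DESeq2 and 0 to 5.

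Same-numbered libraries did not deviate together (correlations from -0.238 to 0.375), so the replicate numbers do not pair them. When that number entered the fit as a block, the counts of called genes became 19 at baseline, 19 at Day 5, 26 in AJcl, 1592 in ByJcl, 1469 for the mean response and 0 for the interaction, no lymphocyte gene was called, and the interaction of Cd79b turned to -0.25. Of the 108 values of the lymphocyte genes, 72 reached 10 counts.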

Other observations

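The following values were chosen after they were seen. Cd8b1, the beta chain that pairs with the product of Cd8a on conventional cytotoxic T cells, stood at 0.0462 to 0.0855 CPM in AJcl baseline libraries, which is 2 to 4 counts and around the floor of 3 counts, and at 0.168 to 0.401 CPM in ByJcl baseline libraries. The groups did not overlap, as for 14.3% of all tested genes at baseline, and the log2 fold change was 2.00 (SE 0.62, edgeR adjusted p = 0.515), while that of Cd8a was -0.28. Of the pan-leukocyte genes, Ptprc, which encodes CD45, had a mean of 7.49 ± 1.52 CPM at AJcl baseline and 16.7 ± 2.90 CPM at ByJcl baseline (SD, n = 3 each), a log2 fold change of 1.18 (SE 0.39, edgeR adjusted p = 0.548). Cd53, a tetraspanin of leukocytes, had a mean of 17.3 ± 2.53 CPM in AJcl and 6.37 ± 0.307 CPM in ByJcl at baseline, a log2 fold change of -1.42 (SE 0.28, edgeR adjusted p = 0.150). By edgeR none of these differences passed the threshold, and by DESeq2 that of Cd53 did.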
